A study of Mus musculus with 20 samples.

Results

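Hepa-1 cells that had been grown with hexavalent chromium, Cr(VI), for 20 passages were compared with control-grown cells of the same passage after both had been given benzo[a]pyrene (B[a]P) for 8 hours. Hepa-1 is a mouse hepatoma line with an intact response to B[a]P. The comparison holds 4 of the 20 RNA sequencing libraries of the study, 2 from Cr(VI)-grown cells with B[a]P and 2 from control-grown cells with B[a]P, taken by their labels. The study also holds the same growth histories with the solvent DMSO at passage 20, the corresponding 4 groups at passage 25, and cells returned to Cr(VI)-free medium, in 10 groups of 2 libraries. All cultures were of the same line, kept with 5% serum and split at intervals of 3 days. By the labels Cr(VI) was at 0.5 mM and B[a]P at 5 mM. The study's title calls the concentrations low, and the units are printed here as the labels have them. No source used here says whether the duplicate libraries came from separate cultures, and the p-values then measure only the spread between these libraries, which may be technical. The labels do not say how many cultures were grown with Cr(VI), so an effect of Cr(VI) and a difference between separately passaged cultures cannot be told apart.

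B[a]P is a combustion product that binds the aryl hydrocarbon receptor (AHR). The liganded receptor pairs with ARNT, binds a short DNA core in front of its target genes and raises the cytochrome P450 enzymes that oxidise B[a]P, and some of the oxidised products bind DNA. Quinone products and reactive oxygen release the transcription factor NRF2, which raises glutathione, thioredoxin and quinone-reducing enzymes, and DNA adducts activate p53. Cr(VI) enters cells as chromate and is reduced inside them to Cr(III), which forms DNA adducts and crosslinks. In Hepa-1 cells, short treatments with chromate are known for lowering the induction of Cyp1a1 by B[a]P.

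The duplicates were close in both groups. Between duplicates, 0.07% of the 13551 genes tested differed by more than 2-fold in control-grown cells and 0.3% in Cr(VI)-grown cells. Total counts were 31535617 and 33113295 in the control-grown and 26117501 and 31534041 in the Cr(VI)-grown libraries, within the range of all 20 libraries (20976045 to 37930720). The share of counts taken by the 100 most abundant genes was 18.4% and 19.5% in control-grown and 20.3% and 22.1% in Cr(VI)-grown cells, so the Cr(VI)-grown libraries were higher in both duplicates. Levels are given below as CPM, read counts relative to the TMM-scaled total of the library, which do not correct for transcript length. Differences are given as log2 fold changes of Cr(VI)-grown over control-grown cells ± a standard error (SE) taken from the test. That SE is the absolute log2 fold change divided by the square root of the test's F statistic. With 2 libraries a group, "not overlapping" means that both libraries of one group lay above both of the other.

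Under B[a]P, 1088 genes (8.03% of those tested) passed an adjusted p of 0.05 in edgeR's quasi-likelihood test, of which 536 rose (3.96%) and 552 fell (4.07%) in Cr(VI)-grown cells. At least 2-fold changes were made by 303 of them (2.24%), with 211 rises (1.56%) and 92 falls (0.679%). The larger rises lay mostly in weakly detected genes: 139 of the 211 had a mean under 2 CPM, against 22 of the 92 falls. The groups did not overlap for 30.9% of genes in the higher and 31.8% in the lower direction, called or not. In bulk RNA of a culture, fewer cells that express a gene and less RNA per cell cannot be told apart. The adjusted p-values of all calls lay between 0.0336 and 0.05, and 4510 genes had an unadjusted p under 0.05. These calls rest on the spread of these 4 libraries: without the first control-grown library 224 genes passed, and with the spread shared over the 8 libraries of passage 20 or over all 20 libraries 0 genes passed (1468 and 274 at an unadjusted p under 0.05). Of the 93 called genes that the rule names, 40 passed without each of the 4 libraries in turn, and 52 did not pass without the first control-grown library. The plot of change against level marks the genes described next.

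**Figure D1:**
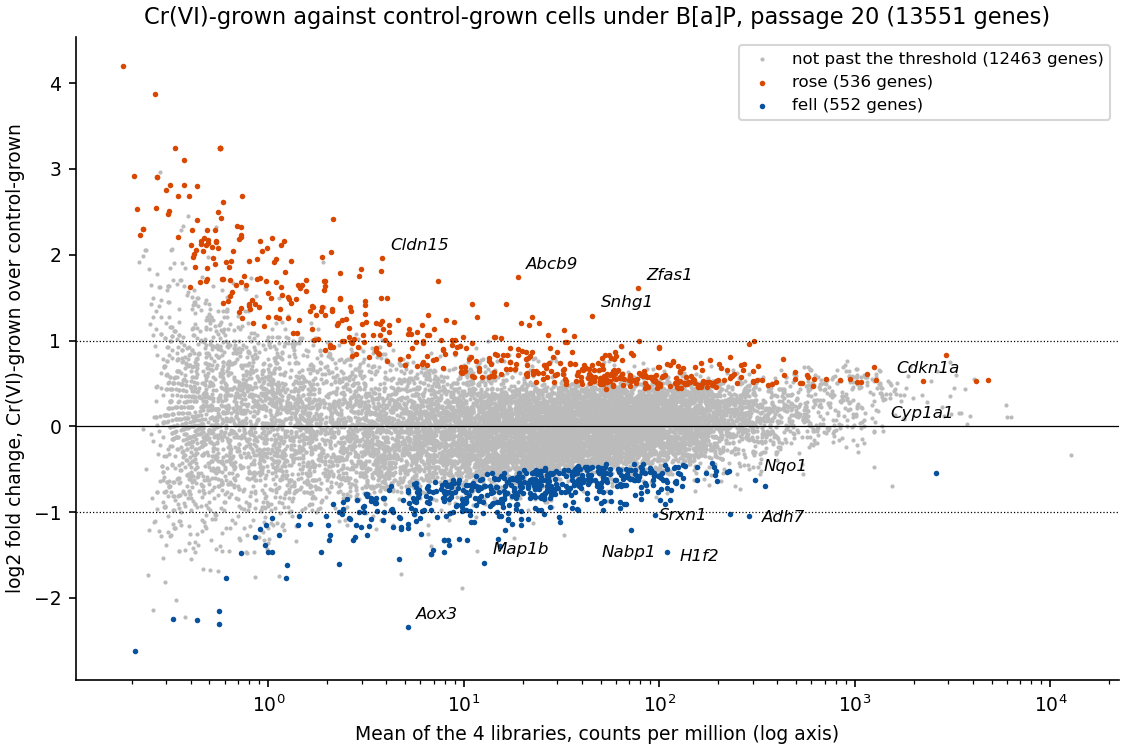
Log2 fold change of Cr(VI)-grown over control-grown cells under B[a]P (vertical axis) against the mean CPM of the 4 libraries (log axis), 1 point per gene, with dotted lines at 2-fold. The 536 rises and 552 falls are coloured, the widest changes sit at low levels, Cyp1a1 lies at 0.00 and Aox3 is lowest among the labelled genes at -2.34.

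Among AHR target genes, the main B[a]P-oxidising enzyme was at the same mean level in both groups while 6 genes of the list were lower in Cr(VI)-grown cells. Of 15 list members tested, 0 rose, 6 fell and 9 did not pass, and their median log2 difference was -0.46 against 0.00 over all genes tested. Between duplicates the list's median difference was -0.04 in control-grown and -0.08 in Cr(VI)-grown cells. Cyp1a1, the P450 that oxidises B[a]P, was at 1373 and 1395 CPM in control-grown and at 1407 and 1363 CPM in Cr(VI)-grown cells (log2 0.00 ± 0.11, adjusted p = 0.997). The groups overlapped and all 4 libraries lay within a narrow band. Cyp1a2, its neighbour gene, was at 61.2 and 58.3 against 66.2 and 51.9 CPM (log2 -0.02 ± 0.14). Tiparp, an ADP-ribosyltransferase that represses AHR, was at 80.8 and 69.5 against 83.5 and 71.5 CPM (log2 0.04 ± 0.13). Both overlapped between groups, as did Ahr itself (log2 -0.05 ± 0.17) and its partner Arnt (log2 -0.19 ± 0.14), and 0 of 14 members of the list of AHR and its partners passed.

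The strongest fall of the list was that of Aox3, a molybdenum enzyme that oxidises aldehydes and aromatic heterocycles, on chromosome 1 (58113135 to 58202221, GRCm38). It was at 9.26 and 8.02 CPM in control-grown and 2.07 and 1.37 CPM in Cr(VI)-grown cells. Both Cr(VI)-grown libraries were far below both control-grown ones, a 5.05-fold lower mean level (log2 -2.34 ± 0.23, adjusted p = 0.0336). Selenbp1, a selenium-binding methanethiol oxidase and a strongly AHR-inducible gene, was at 13.5 and 13.5 against 7.71 and 7.71 CPM (log2 -0.80 ± 0.14, adjusted p = 0.0356). Its close paralog Selenbp2, with which it may share reads, was at 6.92 and 7.64 against 4.30 and 3.77 CPM (log2 -0.85 ± 0.17). Cyp1b1, the other P450 that activates polycyclic hydrocarbons, was at 42.6 and 37.6 against 29.2 and 24.6 CPM (log2 -0.58 ± 0.14, adjusted p = 0.0494).

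Of the phase II members, Nqo1, Ugt1a6a and Ugt1a6b fell. Nqo1, a quinone reductase under both AHR and NRF2, was at 389 and 358 CPM in control-grown and 247 and 240 CPM in Cr(VI)-grown cells, with no overlap (1.53-fold lower, log2 -0.62 ± 0.11, adjusted p = 0.0356). Ugt1a6a, which conjugates phenols to glucuronic acid, was at 151 and 146 against 91.6 and 96.9 CPM (log2 -0.66 ± 0.10). Ugt1a6b gave nearly the same values, and since the genes of this locus share exons their counts are uncertain between them. Aldh3a1, an aldehyde dehydrogenase, was at 370 and 382 against 278 and 300 CPM and missed the threshold (log2 -0.38 ± 0.11, adjusted p = 0.0665). Xdh, which makes uric acid and superoxide, was at 188 and 165 against 145 and 112 CPM and also missed it (log2 -0.46 ± 0.15, adjusted p = 0.0908). Of the 6 falls, Aox3 alone passed without each of the 4 libraries in turn. Without the first control-grown library the adjusted p of the other 5 lay between 0.0859 (Selenbp1) and 0.346 (Cyp1b1), and that of Nqo1 was 0.253. The AHR repressor gene Ahrr had at most 0.103 CPM and was not tested. Among the B[a]P libraries in the plot of these genes, Cyp1a1 coincides between growth histories while Nqo1, Selenbp1 and Aox3 separate.

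**Figure D2:**
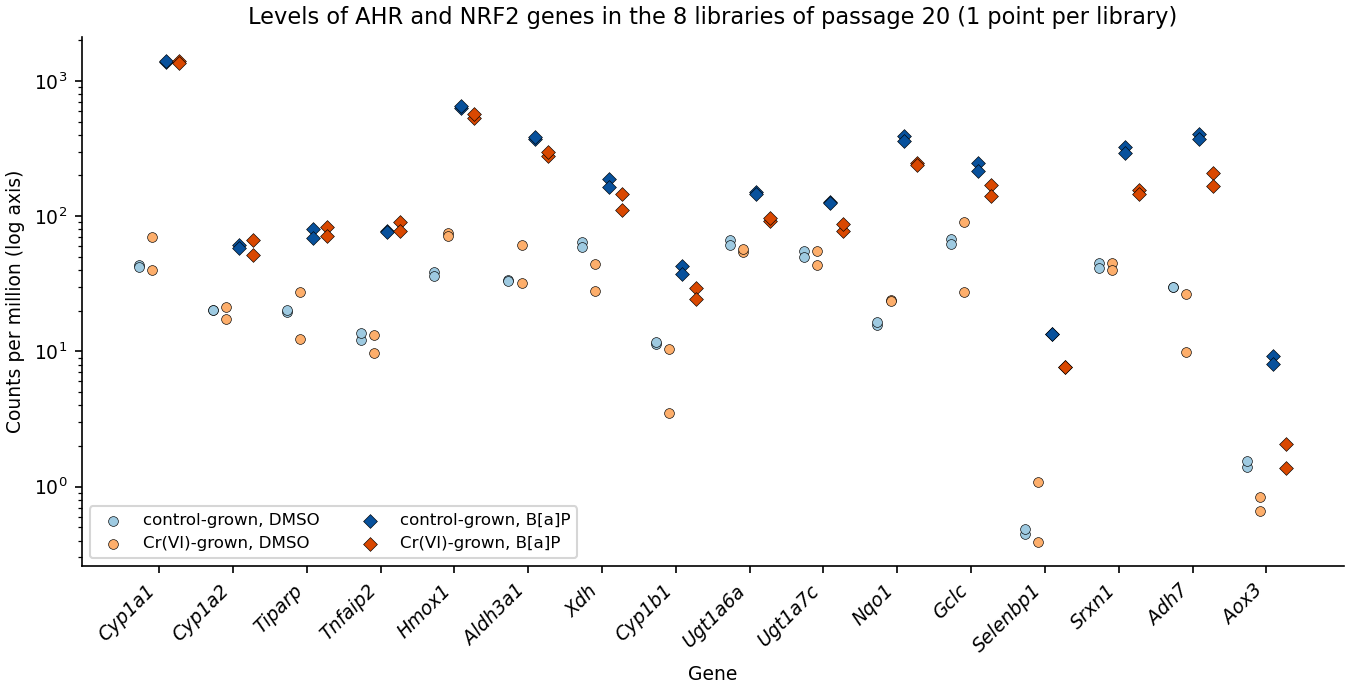
Levels in CPM (log axis) of 16 AHR and NRF2 genes in the 8 libraries of passage 20, 1 point per library, circles for DMSO and diamonds for B[a]P, blue for control-grown and orange for Cr(VI)-grown cells. Under B[a]P the Cyp1a1 points lie between 1363 and 1407, while both Cr(VI)-grown points of Nqo1 (247 and 240), Srxn1 (157 and 147) and Aox3 (2.07 and 1.37) lie below the control-grown ones.

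Windows of 250 bases at the start of 6 of these genes, each ahead of the start that RefSeq's promoter table uses, are printed to set genes that fell beside Cyp1a1, which was at the same mean level. They are RefSeq sequences of GRCm38.p6, 5′ to 3′ on the gene's own strand. For Cyp1a1 that start lies inside the span annotated for the gene (57687928 to 57703824), and for Aox3 the window takes in the first base of the annotated gene. Capitals mark the AHR core GCGTG, or CACGC where it lies on the other strand. The window of Cyp1a1 lies at chr9:57697363-57697612 (plus strand), Cyp1b1 at chr17:79715062-79715311 (minus strand), Aox3 at chr1:58112886-58113135 (plus), Selenbp1 at chr3:94932833-94933082 (plus), Srxn1 at chr2:152105274-152105523 (plus) and Nqo1 at chr8:107403206-107403455 (minus).
Cyp1a1: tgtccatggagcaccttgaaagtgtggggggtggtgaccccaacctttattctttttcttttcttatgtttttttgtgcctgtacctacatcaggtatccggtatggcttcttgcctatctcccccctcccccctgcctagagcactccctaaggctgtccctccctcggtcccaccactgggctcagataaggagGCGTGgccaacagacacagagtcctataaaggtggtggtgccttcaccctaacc
Cyp1b1: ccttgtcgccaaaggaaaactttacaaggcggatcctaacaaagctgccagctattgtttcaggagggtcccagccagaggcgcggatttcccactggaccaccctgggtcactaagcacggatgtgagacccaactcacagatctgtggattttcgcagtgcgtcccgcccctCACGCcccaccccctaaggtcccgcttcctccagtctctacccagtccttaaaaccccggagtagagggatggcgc
Aox3: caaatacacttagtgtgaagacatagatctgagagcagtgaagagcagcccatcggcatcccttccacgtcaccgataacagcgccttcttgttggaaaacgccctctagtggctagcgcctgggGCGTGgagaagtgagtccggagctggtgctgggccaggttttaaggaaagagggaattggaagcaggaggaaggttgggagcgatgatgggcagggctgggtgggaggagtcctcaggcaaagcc
Selenbp1: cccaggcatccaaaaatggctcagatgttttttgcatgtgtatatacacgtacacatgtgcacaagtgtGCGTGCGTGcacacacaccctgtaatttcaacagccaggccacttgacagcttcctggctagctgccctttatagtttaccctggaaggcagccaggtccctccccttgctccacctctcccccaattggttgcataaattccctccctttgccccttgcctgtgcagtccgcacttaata
Srxn1: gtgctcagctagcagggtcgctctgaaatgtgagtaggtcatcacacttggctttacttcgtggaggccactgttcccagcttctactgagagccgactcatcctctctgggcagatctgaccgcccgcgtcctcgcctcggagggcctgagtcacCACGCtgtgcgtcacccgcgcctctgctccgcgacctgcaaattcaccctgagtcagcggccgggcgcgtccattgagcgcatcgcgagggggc
Nqo1: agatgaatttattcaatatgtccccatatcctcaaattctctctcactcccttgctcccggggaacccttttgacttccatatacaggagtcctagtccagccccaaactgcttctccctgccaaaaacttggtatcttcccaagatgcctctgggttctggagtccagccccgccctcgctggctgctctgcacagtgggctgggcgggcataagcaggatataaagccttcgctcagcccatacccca
Cyp1a1 and the fallen genes Cyp1b1, Aox3 and Srxn1 each held 1 core in this window, Selenbp1 held 2 that overlap, and Nqo1 held none. Of 12 list members with a window, 7 held a core, and of the 5 fallen members with a window 3 did. Over all 32851 windows the share was 28.2%, over 10624 tested genes 44.1%, over genes that rose 42.0% and over genes that fell 47.3%. The letters TGACNNNGC are a form of the core of the antioxidant element bound by NRF2, and no other form was searched. On either strand, they were in 11.9% of the windows of tested genes, 14.6% of those that rose and 9.41% of those that fell. These letters were in none of the 6 windows printed, which does not cover other forms of the element.

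The NRF2 antioxidant list moved in both directions. Of 26 members tested, 2 rose, 3 fell and 21 did not pass, beside 8.03% called over all genes tested. Their median log2 difference was 0.12. Srxn1, sulfiredoxin, which restores over-oxidised peroxiredoxins, was at 322 and 295 CPM in control-grown and 157 and 147 CPM in Cr(VI)-grown cells (2.03-fold lower, log2 -1.02 ± 0.11, adjusted p = 0.0352). Gclc, the catalytic subunit of the enzyme that limits glutathione synthesis, was at 248 and 214 against 170 and 141 CPM (log2 -0.57 ± 0.14, adjusted p = 0.049). The third fall was that of Nqo1, described above. Among the rises was Osgin1, an oxidative stress-induced growth inhibitor, at 159 and 174 against 297 and 286 CPM (log2 0.81 ± 0.11, adjusted p = 0.0352). Nfe2l2, which encodes NRF2 itself, was at 336 and 310 against 498 and 429 CPM (log2 0.52 ± 0.12, adjusted p = 0.0476). The groups did not overlap for any of these 5 genes, which was close to fixed once they had passed the threshold. The transcripts of the factor and of Osgin1 were higher while those of the 3 falls were lower. Replicate 2 minus replicate 1 in control-grown B[a]P, Cr(VI)-grown B[a]P and Cr(VI)-grown DMSO duplicates was -0.21, -0.26 and -1.7 for Gclc. For Srxn1 it was -0.13, -0.09 and -0.17, for Nqo1 -0.12, -0.04 and -0.0 and for Osgin1 0.13, -0.05 and 0.77. Its part in these calls was not tested. Of all 26 members, 15 had a positive and 11 a negative log2 difference. Srxn1 passed without each library in turn, while without the first control-grown library Osgin1 (adjusted p = 0.107) and Gclc (0.374) did not. Hmox1, which degrades haem, was at 626 and 652 against 536 and 571 CPM and did not pass (log2 -0.21 ± 0.11, adjusted p = 0.225).

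In the conjugation and export list, 3 of 21 members fell and 0 rose, where 4.07% of all genes tested fell and 3.96% rose. Ugt2b34, another glucuronosyltransferase, was at 150 and 129 against 80.8 and 68.7 CPM (log2 -0.90 ± 0.13). The other 2, Ugt1a7c (log2 -0.62 ± 0.11) and Ugt1a1 (log2 -0.58 ± 0.11), belong to the shared-exon locus of Ugt1a6a. Adh7, an alcohol dehydrogenase that oxidises retinol, was among the 6 most abundant genes with at least a 2-fold change. It was at 406 and 370 against 209 and 168 CPM (log2 -1.04 ± 0.14, adjusted p = 0.0352). Replicate 2 minus replicate 1 in control-grown B[a]P, Cr(VI)-grown B[a]P and Cr(VI)-grown DMSO duplicates was -0.13, -0.32 and -1.38 for Adh7. For Ugt2b34 it was -0.21, -0.23 and -1.71, for Ugt1a7c -0.02, 0.18 and 0.34 and for Ugt1a1 0.0, 0.2 and 0.41. The part of these differences in these falls was not tested. In the metal response list 0 of 11 members passed, beside 8.03% over all genes tested. Its metallothioneins Mt1 (log2 0.22 ± 0.17) and Mt2 (log2 0.35 ± 0.15), small metal-binding proteins, did not differ beyond the threshold.

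p53 target genes showed no common direction. Of 32 tested, 2 rose and 4 fell, with a median log2 difference of 0.02, beside 8.03% called over all genes tested. Cdkn1a, the p53-induced inhibitor of cyclin-dependent kinases, was at 1208 and 1221 CPM in control-grown and 1594 and 1915 CPM in Cr(VI)-grown cells. Both Cr(VI)-grown libraries were higher, and the gene missed the threshold (log2 0.53 ± 0.13, adjusted p = 0.0537). Gdf15, a stress cytokine, overlapped between groups (851 and 977 against 762 and 1071 CPM), and Mdm2, the ubiquitin ligase for p53, was at 571 and 555 against 522 and 505 CPM (log2 -0.13 ± 0.11). Plk2, a polo-like kinase, rose (402 and 373 against 678 and 522 CPM, log2 0.63 ± 0.15), as did Perp, a desmosomal protein (log2 0.53 ± 0.11). The falls were Rrm2b, the p53-regulated ribonucleotide reductase subunit (log2 -1.08 ± 0.20), Mdm4, a p53 inhibitor (log2 -0.88 ± 0.21), the translesion polymerase gene Polk (log2 -0.62 ± 0.12) and Btg2, an antiproliferative factor. Btg2 was at 110 and 113 against 75.0 and 77.1 CPM (log2 -0.55 ± 0.10, adjusted p = 0.0372). Replicate 2 minus replicate 1 in the control-grown B[a]P, Cr(VI)-grown B[a]P and Cr(VI)-grown DMSO duplicates was -0.34, -0.47 and -1.87 for Rrm2b. It was -0.33, -0.57 and -2.69 for Mdm4, -0.1, -0.2 and -1.56 for Polk and 0.03, 0.04 and -0.47 for Btg2. The part of these differences in the falls was not tested. Rrm2b passed without each library in turn, and Btg2 (adjusted p = 0.224), Plk2 (0.175), Polk (0.228) and Mdm4 (0.0928) did not without the first control-grown library.

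Genes for repair of DNA breaks and crosslinks were lower in their majority, though most missed the threshold. Of 33 tested, 1 rose, 6 fell and 26 did not pass, 28 had a negative log2 difference, and the median was -0.34. Brca2, of homologous recombination, was at 22.4 and 18.9 CPM in control-grown and 11.8 and 12 CPM in Cr(VI)-grown cells (log2 -0.79 ± 0.14, adjusted p = 0.0362). Rad51c, of the same pathway, was at 2.06 and 2.44 against 0.822 and 1.20 CPM (log2 -1.14 ± 0.26). Of the Fanc genes of the Fanconi crosslink repair pathway, those that fell were Fancl, its ubiquitin ligase (6.29 and 6.70 against 3.91 and 3.87 CPM), and Fancg, a core complex subunit (19.1 and 19.7 against 11.9 and 13.8 CPM). The other Fanc genes tested did not pass, with log2 values from -0.56 (Fancd2) to -0.05 (Fancc and Fance). The remaining falls were Rad51d (log2 -0.58 ± 0.14) and Xrcc5, the larger Ku subunit of end joining (log2 -0.50 ± 0.11). Rad52, an annealing factor, rose from 9.02 and 9.02 to 13.1 and 13.9 CPM (log2 0.58 ± 0.14). Without the first control-grown library Brca2, Fancl and Fancg did not pass (adjusted p = 0.181, 0.150 and 0.224). Replicate 2 minus replicate 1 differences of this list had medians of -0.01 and 0.01 in the control-grown and Cr(VI)-grown duplicates. Of 30 excision repair genes, Lig3, a DNA ligase, fell (log2 -0.87 ± 0.17) and Ercc8, of transcription-coupled repair, rose (log2 0.76 ± 0.14). The other 28 did not pass, and 8.03% of all genes tested were called in either direction. Rnf8, a ubiquitin ligase recruited to breaks, was the 1 called gene of 15 in damage signalling (log2 0.49 ± 0.11).

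Linker histone genes were among the largest falls. H1f2 was at 154 and 165 CPM in control-grown and 53.2 and 62.1 CPM in Cr(VI)-grown cells (2.76-fold lower, log2 -1.47 ± 0.12, adjusted p = 0.0336). H1f3 was at 12 and 11.3 against 3.76 and 4.66 CPM (log2 -1.47 ± 0.17), and H1f4 at 10.1 and 9.93 against 3.37 and 3.77 CPM (log2 -1.49 ± 0.16). All 3 passed without each of the 4 libraries in turn. These were the only calls among 27 replication histone genes. The list median was -0.01, and the near-identical core histone genes may share reads. Of the cell cycle genes, 3 of 27 passed in the S phase list, 0 of 26 in the G2 and mitosis list and 1 of 10 in the G1 list. The share called over all genes tested was 8.03%. In the S phase list Cdt1, a licensing factor, and Rpa2, of the single-strand binding complex, rose (log2 0.45 ± 0.10 and 0.52 ± 0.12) and Pola1, the primase-associated polymerase gene, fell (log2 -0.73 ± 0.17). Rbl1, a retinoblastoma relative, was the 1 call in the G1 list (log2 -0.83 ± 0.17).

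Sterol synthesis genes fell in part. Of 23 tested, 0 rose and 5 fell, with a median of -0.23, where 3.96% of all genes tested rose and 4.07% fell. Dhcr7, of the last step to cholesterol, was at 20.5 and 20.1 against 10.7 and 9.08 CPM (log2 -1.04 ± 0.14, adjusted p = 0.0352). Hsd17b7, a sterol ketoreductase, was at 33.1 and 30.5 against 17.1 and 15.5 CPM (log2 -0.97 ± 0.13). Sqle and Cyp51, of earlier steps, fell by 0.50 and 0.49 on the log2 scale. Replicate 2 minus replicate 1 in control-grown B[a]P, Cr(VI)-grown B[a]P and Cr(VI)-grown DMSO duplicates was -0.12, -0.14 and -1.53 for Hsd17b7. For Dhcr7 it was -0.03, -0.22 and -0.33 and for Sqle -0.04, -0.03 and -0.36, and its part in these falls was not tested. Dhcr7 and Hsd17b7 passed without each library in turn, and Sqle (adjusted p = 0.334) did not without the first control-grown library. In these 4 genes both Cr(VI)-grown libraries were below both control-grown ones, which was close to fixed once they had passed the threshold.

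Called members of the glycolysis, inflammatory and interferon lists were mainly rises, though most members did not pass (16 of 20, 12 of 17 and 19 of 22). The list medians were 0.09, 0.19 and 0.18, and 3.96% of all genes tested rose. In the glycolysis list 8 of 20 members had a negative log2 difference. In the hypoxia and glycolysis list 4 of 20 members rose and 0 fell: Gapdh was at 3802 and 4026 against 5667 and 5713 CPM and Eno1 at 1014 and 1082 against 1550 and 1487 CPM (log2 0.54 for each). The stress gene Ndrg1 (log2 0.56 ± 0.11) and the peptide hormone gene Adm (log2 1.39 ± 0.30, under 2 CPM in every library) were the others. In the NF-kB and cytokine list 4 of 17 rose, the subunits Rela (169 and 179 against 257 and 250 CPM) and Relb (23.7 and 26.1 against 38.9 and 39.5 CPM) and the acute phase genes Saa3 and Lcn2, and Vcam1, an adhesion molecule, fell (log2 -0.52 ± 0.12). In the interferon list 3 of 22 rose and 0 fell. Usp18, a negative regulator of interferon signalling, had means of 69.6 ± 3.08 (SD) and 131 ± 12.2 CPM (log2 0.91 ± 0.12). The others were Oasl1 and Mx2. Replicate 2 minus replicate 1 in control-grown B[a]P, Cr(VI)-grown B[a]P and Cr(VI)-grown DMSO duplicates was 0.24, 0.76 and 1.91 for Saa3. For Usp18 it was 0.09, 0.19 and 0.17, and its part in these rises was not tested. Usp18 and Saa3 passed without each library in turn, and Gapdh (adjusted p = 0.417), Eno1 (0.417), Rela (0.352) and Relb (0.238) did not without the first control-grown library.

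In the ATF4 stress list 1 of 20 members rose and 1 fell, in the heat shock list 1 of 11 rose and 1 fell, and among immediate early genes 1 of 18 rose and 2 fell, beside 8.03% called in either direction over all genes. Chac1, a glutathione-degrading enzyme induced by ATF4, fell (4.28 and 4 against 1.76 and 1.92 CPM), while Ppp1r15a, which restores translation under stress, rose (152 and 151 against 241 and 261 CPM). The chaperone Hspa8 fell by 0.55 on the log2 scale and its cochaperone Bag3 was 1.42-fold higher. Among immediate early genes the AP-1 subunit gene Fosl1 rose (191 and 191 against 305 and 276 CPM) and Fosl2 and Egr1 fell (log2 -0.61 for both). Of 15 clock genes Per1 and Nr1d1, repressors within the clock, rose (log2 0.62 ± 0.14 and 0.61 ± 0.11). Ccn1, a matrix protein, fell (49.6 and 50.1 against 24.3 and 26.9 CPM), and so did Cldn2, a tight junction protein (log2 -0.57 ± 0.11). In the chromatin list the histone deacetylase gene Hdac5 rose (log2 0.77 ± 0.11) and the acetyltransferase gene Kat2b fell (log2 -0.79 ± 0.13), while Hdac1 (log2 -0.12 ± 0.10) and Dnmt1 (log2 -0.29 ± 0.14) did not pass.

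Of 10 structural and nuclear noncoding RNAs tested, 4 rose and 1 fell, where 3.96% of all genes tested rose and 4.07% fell. Snhg1, a host transcript of small nucleolar RNAs, was at 26.3 and 26.5 CPM in control-grown and 57.3 and 72.0 CPM in Cr(VI)-grown cells (log2 1.29 ± 0.14, adjusted p = 0.0352), Snhg12, of the same kind, at 5.95 and 7.08 against 11.7 and 15.0 CPM (log2 1.04 ± 0.18) and Gas5, another, at 39.0 and 47.6 against 66.3 and 87.2 CPM (log2 0.82 ± 0.17). Zfas1, a further such host RNA outside the list, was at 36.6 and 40.2 against 94.2 and 140 CPM (log2 1.61 ± 0.19). Rpph1, the RNA of ribonuclease P, was at 0.395 and 0.47 against 2.35 and 1.58 CPM (log2 2.16 ± 0.32). The fall was that of Xist (log2 -0.52 ± 0.11). Ribosomal protein genes, 24 of 24 of which did not overlap between groups and were higher, held 0 calls, with a median log2 difference of 0.50. Of all genes tested, 30.9% did not overlap in the higher direction. The same list differed between duplicates: the median of replicate 2 minus replicate 1 was 0.20 in control-grown, 0.43 in Cr(VI)-grown B[a]P libraries and 1.56 in the Cr(VI)-grown DMSO libraries. For Zfas1 those 3 differences were 0.13, 0.57 and 1.68. Oxidative phosphorylation genes had a median of 0.28 with 0 of 23 called, and differences between duplicates of 0.16, 0.32 and 1.35. The part of this axis in the comparison of groups was not tested.

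In the list of hepatocyte secreted proteins 2 of 16 members rose, 0 fell and 14 did not pass. The rises were those of Hpx, which binds haem in plasma (1.58 and 1.76 against 4.19 and 5.03 CPM), and Apoe, of lipid transport (10.6 and 15.5 against 26.5 and 37.0 CPM). Over all lists, 33 of 683 distinct genes rose and 44 fell, which is 11.3% called beside 8.03% of all genes. The plot of lists orders them by median.

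**Figure D3:**
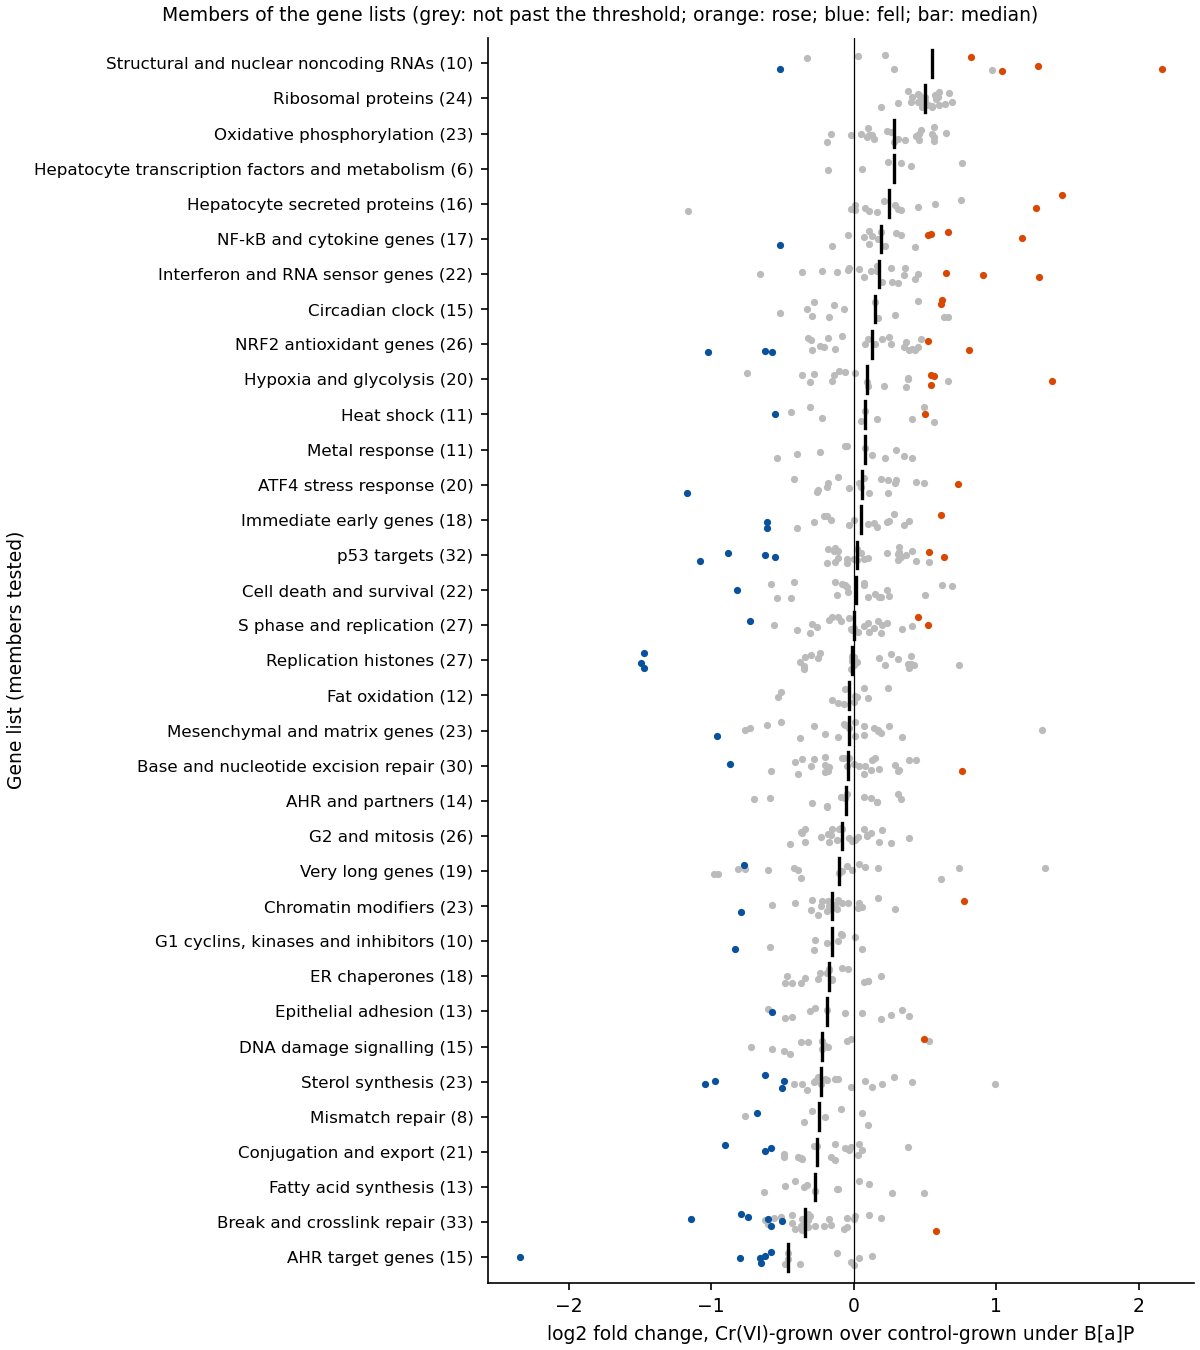
Log2 fold change under B[a]P (horizontal axis) of the tested members of 35 gene lists, 1 point per gene, coloured where the gene passed the threshold, with a bar at each list's median. AHR target genes have the lowest median (-0.46) and structural and nuclear noncoding RNAs the highest (0.55), and ribosomal proteins form a tight group near 0.50 without a call.

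Outside the lists, the largest rise at a mean of 2 CPM or more was the noncoding RNA 4933413J09Rik (0.607 and 0.735 against 3.44 and 3.77 CPM, log2 2.42 ± 0.23). Cldn15, a tight junction protein, was at 1.40 and 1.73 against 6.03 and 6.17 CPM (log2 1.96 ± 0.19). Abcb9, a lysosomal peptide transporter, was at 7.90 and 9.52 against 27 and 31.3 CPM (log2 1.74 ± 0.16). The other large rises, Lrrc17, Dok3, Gzmm, Sh3d21, Car15, Slc23a3, Col11a2 and H2-DMa, had log2 values from 1.49 to 2.03. Among the largest falls, Map1b, a microtubule-associated protein, was at 21.7 and 16.5 against 7.67 and 5.03 CPM (log2 -1.59 ± 0.23), and Trib2, a pseudokinase, at 3.37 and 3.56 against 1.21 and 1.06 CPM (log2 -1.61 ± 0.21). Fzd4, a Wnt receptor, and Gdf11, a TGF-beta family ligand, fell by 1.55 and 1.49 on the log2 scale, and Trim56, Lmbrd2, Kctd12 and Jrk by 1.33 to 1.44. Replicate 2 minus replicate 1 (log2, in control-grown B[a]P, Cr(VI)-grown B[a]P and Cr(VI)-grown DMSO duplicates) was -0.39, -0.56 and -1.0 for Map1b. For Trib2 it was 0.07, -0.13 and -0.56, for Fzd4 -0.44, -0.68 and -2.24 and for Gdf11 -0.13, -0.68 and -1.77. Trim56 had -0.45, -0.93 and -2.87, Lmbrd2 -0.54, -0.74 and -3.77, Kctd12 -0.11, -0.56 and -1.75 and Jrk -0.13, 0.14 and -0.25. Nabp1, which binds single-stranded DNA, was at 99.4 and 100 against 46.2 and 39.9 CPM (log2 -1.21 ± 0.12), and Sec24d, a coat protein of export from the endoplasmic reticulum, at 139 and 117 against 74.1 and 51.4 CPM (log2 -1.03 ± 0.19). The replicate differences were 0.01, -0.21 and -1.39 for Nabp1 and -0.24, -0.52 and -2.23 for Sec24d. In the rises the 3 differences were 0.16, 0.11 and 1.07 for 4933413J09Rik and 0.24, 0.03 and 0.72 for Cldn15. Abcb9 had 0.26, 0.21 and 1.21, Lrrc17 0.47, 0.7 and 1.94, Dok3 0.8, 0.14 and 1.06 and Gzmm 0.53, 0.33 and 1.08. Sh3d21, Car15, Slc23a3 and H2-DMa were positive in each duplicate pair too, and Col11a2 had 0.4, -0.32 and -0.26. The part of replicate differences in these rises and falls was not tested.

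The DMSO libraries of passage 20 share no library with this comparison. Most called genes had the same sign there: 475 of the 479 rises tested in both (99.2%) and 534 of 550 falls (97.1%), against 79.2% of the 13097 genes tested in both, called or not. Across 13097 genes Pearson's r of the log2 values was 0.74, as a description, since the genes of a comparison share its libraries, depth and scaling. The Cr(VI)-grown DMSO duplicates were far apart, with 27.17% of genes differing by more than 2-fold, and without the second of them the shares were 92.9% and 88.4%, against 65.1% over all genes, and r was 0.52. The replicate difference of that pair itself had an r of 0.46 with the log2 values under B[a]P, a median of 0.47 in genes that rose and -0.86 in genes that fell, and its part in the shared signs was not tested. The DMSO comparison alone gave 0 calls in edgeR, with an unadjusted p under 0.05 for 879 genes, and DESeq2 called 19. Without the second Cr(VI)-grown library edgeR called 7024, and without the first 10646. H1f2 was lower in Cr(VI)-grown cells with DMSO too, at 42.3 and 51.1 CPM (log2 -1.33 ± 0.22), and its Cr(VI)-grown duplicates differed there by 0.27 on the log2 scale.

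Some AHR and stress genes had other values in DMSO. Nqo1 was at 15.8 and 16.5 CPM in control-grown and 23.9 and 23.8 CPM in Cr(VI)-grown DMSO libraries, higher with Cr(VI) where under B[a]P it was lower. Btg2 was likewise at 15.0 and 14.2 against 26.6 and 19.2 CPM. Srxn1 was at 44.9 and 41.3 against 45 and 39.9 CPM in DMSO, and Hmox1 at 38.8 and 36.4 against 75.0 and 71.5 CPM. Cdkn1a was at 215 and 215 against 632 and 788 CPM. The difference of the Cr(VI) effect between B[a]P and DMSO was -1.18 ± 0.17 for Nqo1, -1.20 ± 0.26 for Btg2, -1.0 ± 0.19 for Srxn1, -1.17 ± 0.18 for Hmox1 and -1.19 ± 0.25 for Cdkn1a on the log2 scale. In edgeR 0 genes passed for this difference (380 at an unadjusted p under 0.05, and all 5 of these at an adjusted p of 1). In DESeq2 18 passed, 8 higher and 10 lower, among them Hmox1 (3.82e-07), Nqo1 (1.74e-05), Srxn1 (0.0108), Cdkn1a (0.0237) and Btg2 (0.0352). Of the 18, 4 were also called in the comparison under B[a]P. The edgeR count moved to 5584 without the first and 13 without the second Cr(VI)-grown DMSO library.

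At passage 25 the same comparison under B[a]P, on other libraries, gave 0 calls in edgeR and in DESeq2 (unadjusted p under 0.05 in 8 and 52 genes), and 229 in edgeR without the second Cr(VI)-grown library. Of the called rises 60.2% had the same sign at passage 25, of the falls 45.7% and of all genes 49.4%, and across 12763 genes r was 0.15. Among at least 2-fold calls the share was 88.6% of 105 rises and 32.2% of 90 falls. H1f2 had a log2 difference of 0.45 ± 0.49 at passage 25, Srxn1 -0.08 ± 0.57, Nqo1 -0.25 ± 0.58 and Aox3 -0.22 ± 0.47. Btg2, which fell at passage 20, had 0.94 ± 0.44 at passage 25. The difference between passages was tested and passed for 0 genes in edgeR and in DESeq2 (127 and 134 had an unadjusted p under 0.05), with SEs of 0.62 for Srxn1 and 0.50 for Nqo1. In the plot of both comparisons most called genes share the sign with DMSO, and the falls lie on both sides of 0 at passage 25.

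**Figure D4:**
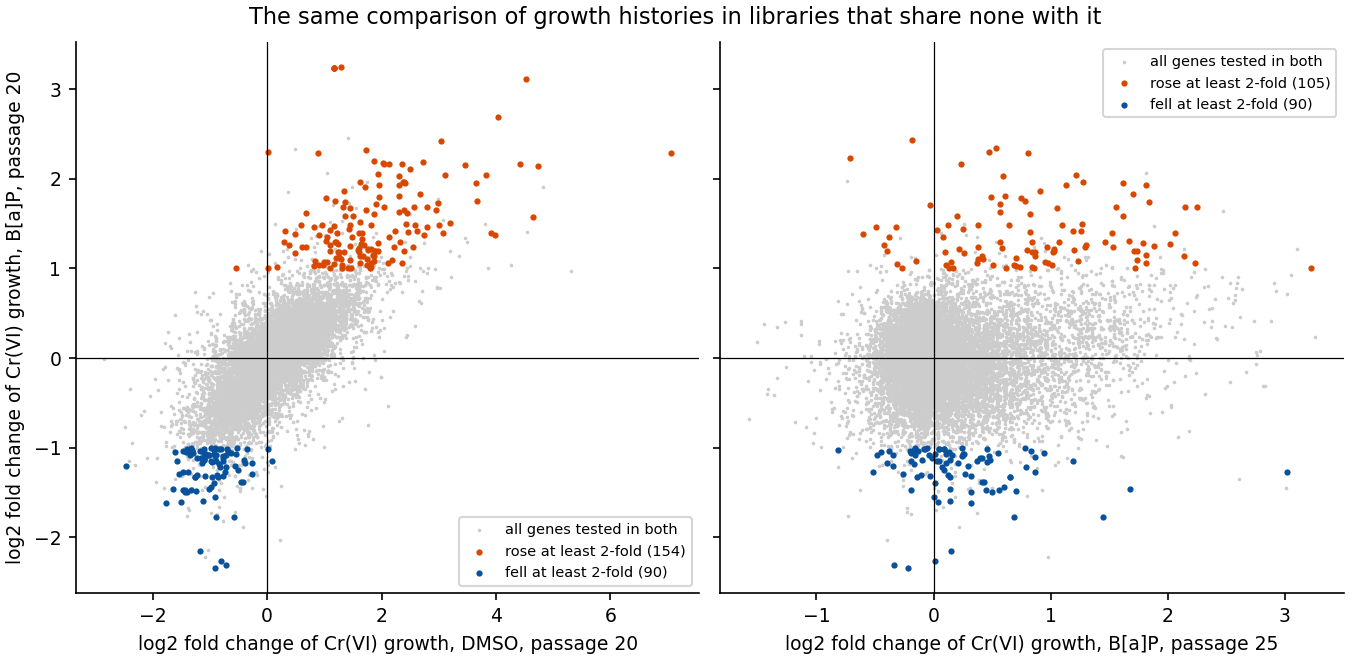
Log2 fold change of Cr(VI) growth under B[a]P at passage 20 (vertical axis) against that in DMSO at passage 20 (left) and under B[a]P at passage 25 (right), 1 point per gene, with genes called at 2-fold or more coloured. In DMSO 153 of 154 coloured rises and 88 of 90 coloured falls share the sign, and at passage 25 93 of 105 and 29 of 90 do.

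Genes under 10 kb of genomic span were more often among the rises and genes of 30 to 300 kb among the falls. In genes under 10 kb 6.54% rose and 2.27% fell, and in genes of 100 to 300 kb 0.987% rose and 5.51% fell. Of the 213 genes of 300 kb or more, 0.469% rose and 2.82% fell, with a median log2 difference of -0.13. The median log2 difference went from 0.17 under 10 kb to -0.21 at 100 to 300 kb, and genes of 100 kb or more lay 0.36 below those under 10 kb on the log2 scale. Replicate 2 differed from replicate 1 by span in the same way within each group. Between the same classes that difference was -0.36 in Cr(VI)-grown and -0.25 in control-grown duplicates, as large as between the groups in the former. The median span was 10.8 kb for rises, 34.7 kb for falls and 20.6 kb for all tested genes. The part of span in single calls was not tested, and values beside it are 15.0 kb for Nqo1, 5.9 kb for Srxn1, 89.1 kb for Aox3 and 0.7 kb for H1f2.

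**Figure D5:**
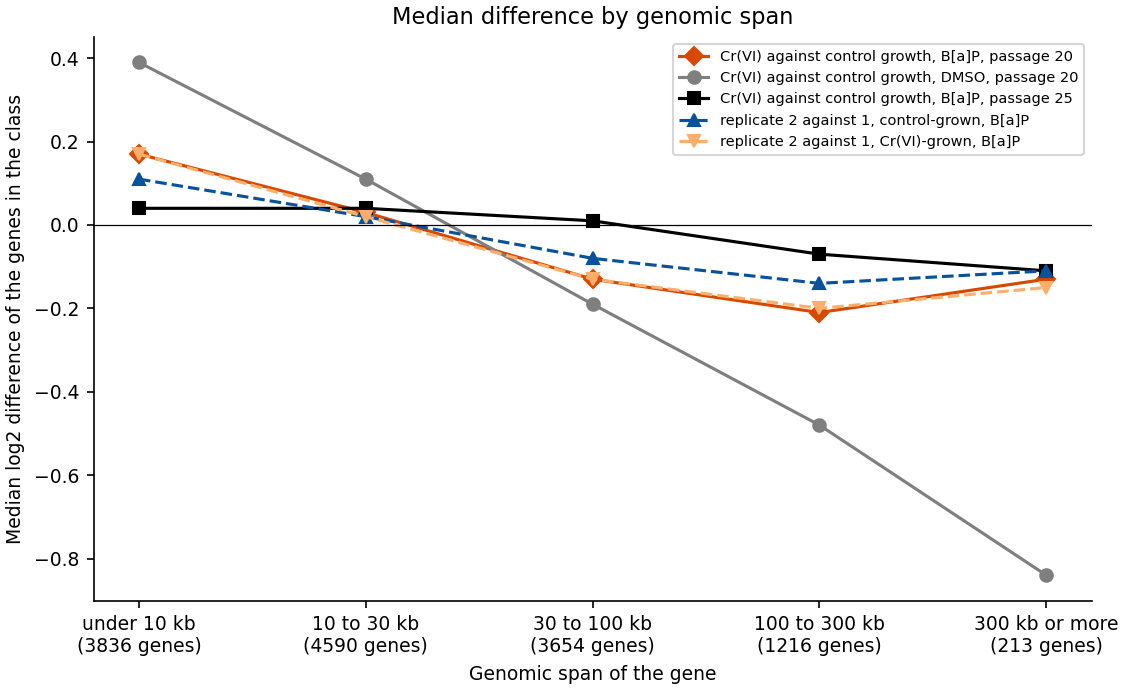
Median log2 difference of the genes (vertical axis) in 5 classes of genomic span for Cr(VI) against control growth (solid lines) and for replicate 2 against replicate 1 of each B[a]P group (dashed lines). The line of the comparison, from 0.17 to -0.21 over the first 4 classes, runs along that of the Cr(VI)-grown duplicates, from 0.17 to -0.20.

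Marker genes of liver cell types were looked at for the identity of the cultures. The hepatocyte markers Alb and Afp were present, Alb at 960 and 941 against 1181 and 1018 CPM and Afp at 212 and 243 against 191 and 258 CPM, and 0 of 8 tested hepatocyte markers passed. Summed hepatocyte markers were at 2612.2 and 2583.0 against 3188.5 and 3032.5 CPM, with 2 of 12 under 0.1 CPM in all 4 libraries. Apob (0.729 and 0.353 against 0.391 and 0.103 CPM) and Ttr (0.334 and 0.353 against 0.235 and 0.48 CPM) were barely detected. Of 12 macrophage markers 4 were under 0.1 CPM in all 4 libraries, their sum was 101.4 and 107.3 against 106.2 and 113.4 CPM, and Cd68, a lysosomal protein, rose (10.8 and 12.1 against 20.5 and 20.2 CPM). Of 12 endothelial markers 7 were under 0.1 CPM, with sums of 8.0 and 7.6 against 8.7 and 7.7 CPM. Stellate and fibroblast markers summed to 797.8 and 762.2 against 907.4 and 709.7 CPM with 4 of 12 under 0.1 CPM, and cholangiocyte markers to 1513.5 and 1617.6 against 1672.5 and 1855.9 CPM with 2 of 10. Except for Cd68, 0 of the tested markers of these 4 other cell types passed.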

How the data were processed

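RNA from 4 Hepa-1 libraries (20 in the study) was compared. The deposited table holds raw counts per Entrez gene ID for 23373 IDs and was used as the authors deposited it. Per the submitters' processing notes bcl2fastq, CASAVA 1.8, TopHat, DESeq and mm10 were used, with no roles given. The counting program, the annotation and the use of strand were not given in the sources used here, so overlapping, antisense and paralogous genes may share reads. Of the IDs, 23275 matched a symbol in RefSeq's GRCm38.p6 table, which also gave coordinates and promoter windows.

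Groups came from the labels. Genes passing filterByExpr (13551) were scaled by TMM and tested two-sided with edgeR 4.0.16 (R 4.3.3) by quasi-likelihood F tests on the 4 libraries, with 2 residual degrees of freedom and Benjamini-Hochberg adjusted p under 0.05, and a second rule added at least 2-fold. Printed CPM use the 8 libraries of passage 20. The differences between DMSO and B[a]P and between passages were tested as contrasts over 8 libraries. DESeq2 1.42.0, other scalings, no filter, shared spread, a replicate block and leaving out each library were alternatives. The code was tested on simulated counts. Between duplicates, counts differed beyond sampling noise in every group.

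Named genes were the 12 largest rises and 12 largest falls of at least 2 CPM without overlap, the 6 most abundant 2-fold calls, up to 4 called members per list and a fixed set of mainly AHR, p53, metal, repair and chromatin genes. The members, lists, main test and rule were chosen with earlier results of these data known. Nfe2l2, Perp, Rad51d, Rad52, Xrcc5, Cyp51, Vcam1 and Xist were named outside this rule, after their values were seen. Some results are not reported here.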

Additional observations from a re-analysis of the deposited data

Results flagged for a closer look

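Nqo1 and Btg2 had opposite directions of the Cr(VI) difference with and without B[a]P at passage 20. Under B[a]P both Cr(VI)-grown libraries were lower than both control-grown ones (Nqo1 247 and 240 against 389 and 358 CPM, Btg2 75.0 and 77.1 against 110 and 113 CPM). In DMSO both were higher (Nqo1 23.9 and 23.8 against 15.8 and 16.5 CPM, Btg2 26.6 and 19.2 against 15.0 and 14.2 CPM). Neither DMSO difference passed in edgeR (log2 0.61 ± 0.22 for Nqo1 and 0.69 ± 0.27 for Btg2, adjusted p = 0.637 for both). The difference of the effects was -1.18 ± 0.17 (SE) for Nqo1 and -1.20 ± 0.26 for Btg2 on the log2 scale. It did not pass over all genes in edgeR (adjusted p = 1 for both) and passed in DESeq2 (1.74e-05 and 0.0352). The comparison includes the Cr(VI)-grown DMSO pair, in which 27.17% of genes differed by more than 2-fold. Between that pair, Btg2 differed by -0.47 on the log2 scale and Nqo1 by less than the printed precision. Under B[a]P at passage 25 the Cr(VI) difference was -0.25 ± 0.58 for Nqo1 and 0.94 ± 0.44 for Btg2, and neither passed.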

How the results depend on the processing

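The count of 1088 calls (303 at 2-fold or more) stayed within 1.5 times under DESeq2 size factors (1075 and 298), upper quartile scaling (1175 and 319) and no filter on low counts (1534 and 369). DESeq2 called 1798 and 238. With the spread shared over the 8 libraries of passage 20 or all 20 libraries it was 0 and 0, with all 20 libraries and the replicate block 1 and 1, and against a 1.5-fold null (glmTreat) 0 and 0 (806 at an unadjusted p under 0.05). A fit of 7 libraries of passage 20 without the second Cr(VI)-grown DMSO library, chosen after seeing the data, called 3256 and 439. Leaving out each library gave 224 to 4999 calls and 159 to 855 at 2-fold or more, the lowest without the first control-grown library. The lone library left in a group is then assumed to vary like the other group's. Without the first control-grown library 202 of the 1088 genes were called, and without the second 607. The 303 genes kept their sign in every one of these fits that tested them. That was close to fixed in advance, since none of them overlapped between groups and the fits share the libraries of the comparison. The number of list members called, 77, went from 19 to 298 when each library was left out, and the span difference from -0.57 to -0.18.

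The replicate numbers were not shown to pair the libraries: replicate differences of the B[a]P groups correlated at 0.54 over genes, those with Cr(VI)-grown DMSO libraries at 0.61 and 0.73, and those involving control-grown DMSO libraries at 0.07 to 0.13. With the replicate number as a block 6184 genes passed, 541 at 2-fold or more, and the DMSO comparison gave 56. For the DMSO comparison DESeq2 gave 19, all 20 libraries with the block 414, and leaving out each library 0 to 10646. The difference between B[a]P and DMSO gave 18 in DESeq2 and 0 to 5584 when each library was left out. Passage 25 gave 0 to 229. The cause of these shifts was not tested. The 93 called named genes kept their sign in every alternative, which was likewise close to fixed in advance. In the difference between passages the median of all genes was 0.12 under TMM and 0.17 under upper quartile scaling.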
